A study of Mus musculus with 104 samples.

Results

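Lars2, the mitochondrial leucyl-tRNA synthetase, was described across the libraries of 53 mice together with 7 other mitochondrial aminoacyl-tRNA synthetases (Aars2, Ears2, Fars2, Hars2, Iars2, Mars2 and Nars2) and Rn45s, the gene entry for the precursor of the cytoplasmic ribosomal RNAs. These 9 genes were listed by name. Lars2 and Rn45s were listed because of their values in the striatum of BACHD mice, so their levels are given as a description with no test. The other 7 genes were tested, and p-values were adjusted over all genes tested in a comparison. All 9 are in the table of the BACHD cohort, which has 22981 genes. The tables of the BAC-CAG cohort have 48795 genes and hold 8 of the 9, since none has a row for Rn45s.

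Both transgenic lines carry a mutant human huntingtin gene on a bacterial artificial chromosome, as models of Huntington's disease, on the FvB strain background. Striatum and cortex were dissected after perfusion with PBS, and RNA was sequenced. BAC-CAG mice, whose repeat is an uninterrupted CAG tract, and their wild-type littermates were sampled at 2 months (6 libraries for each genotype and tissue), 6 months (8) and 12 months (8). BACHD mice and their wild-type littermates were sampled at 12 months (4). Each group had as many males as females, and most animals gave both tissues. Neither line's expression is limited to a cell type by the design, and a tissue sample mixes neurons, glia and vessels, so fewer cells of a type and less RNA per cell cannot be told apart.

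Mitochondria make a small set of respiratory chain proteins on their own ribosomes, with their own transfer RNAs. Each transfer RNA has to be loaded with its amino acid by an aminoacyl-tRNA synthetase, and for most amino acids the mitochondrial enzyme is encoded by a nuclear gene of its own, marked by the suffix 2. Aars2 loads alanine, Ears2 glutamate, Fars2 phenylalanine, Hars2 histidine, Iars2 isoleucine, Lars2 leucine, Mars2 methionine and Nars2 asparagine. Ribosomal RNA is made in the nucleolus from a long precursor, it carries no poly(A) tail, and it is largely removed when libraries are made from polyadenylated RNA.

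The library totals ran from 25.8 M to 48.4 M counts, where M is the SI prefix mega. All 8 striatal marker genes were higher in striatum and all 8 cortical marker genes were lower there in each of the 4 tables (edgeR's quasi-likelihood test, adjusted p under 0.05). Summed cortical markers ranged from 147 to 1356 CPM (a gene's counts scaled to a total of 1 M per library) in striatal libraries and from 1726 to 2847 CPM in cortical libraries. Summed choroid plexus markers reached 1672 CPM in striatal and 225 CPM in cortical libraries. The cohorts differed in Rmrp, the RNA of a ribonuclease that processes the ribosomal precursor, which lacks a poly(A) tail. Rmrp was at 892 to 2572 CPM in the BACHD cohort and at 0 to 0.363 CPM in the BAC-CAG cohort, a difference whose source was not tested. Because of this, and because the tables use different gene annotations, levels are tested only within a table, and those of different tables are set side by side with no test.

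The 5 genes with the highest correlation with Lars2 were taken per tissue and age of the BAC-CAG cohort (described further on). Among them, 3 short entries are typed as microRNA. They are shown here because their letters tell which of them can be separated by a read. The sequences are from the GENCODE M21 transcripts on GRCm38, written 5′ to 3′, and the capital marks the base at which the first 2 differ, A11G, counted from 1 at the 5′ end of Gm24187.
Gm24187: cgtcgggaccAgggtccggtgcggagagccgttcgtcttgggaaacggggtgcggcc
Gm23935: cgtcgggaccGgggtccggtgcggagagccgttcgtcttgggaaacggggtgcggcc
Gm25732: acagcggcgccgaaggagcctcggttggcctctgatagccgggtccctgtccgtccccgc
Gm24187 lies at chr13:9834469-9834525 on the minus strand, Gm23935 at chr16:11144125-11144181 on the plus strand and Gm25732 at chr4:139338206-139338265 on the plus strand. The first 2 are 57 bases long and identical outside that base, and reads from them can be told apart only where they cover it. None of the 3 shares a run of 16 bases with the main coding transcript of Lars2, of 3894 bases. Other Lars2 transcripts were not compared with them at this length. The 3 also share no such run with Gm42418, Gm26917 and AY036118, the noncoding entries on chromosome 17 that were compared. The 3 entries were not compared with the ribosomal RNA itself.

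In the striatum of 12-month BACHD mice, Lars2 was at 748, 1529.6, 833 and 872 CPM, and in their wild-type littermates at 177, 133, 115 and 123 CPM. The groups did not overlap, and the lowest BACHD library was above the highest wild-type library. The mean was 996 ± 360 CPM (SD, n = 4) against 137 ± 27.7 CPM (SD, n = 4), a ratio of 7.27, and the fitted log2 change was 2.85 with a standard error (SE) of 0.20. Rn45s was at 8384, 7164, 8202 and 9519.7 CPM in BACHD striatum and at 3535, 3309, 2744 and 3636 CPM in wild-type striatum. These groups did not overlap either, with means of 8317 ± 965 and 3306 ± 399 CPM (SD, n = 4 each), a ratio of 2.52 and a log2 change of 1.32 (SE 0.11). These 2 genes were chosen from this contrast, in which 1.77% of the 15861 genes tested had every BACHD library above every wild-type library. By the size of the log2 change in either direction, Lars2 ranked 3 and Rn45s 27 of 15861.

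The cortex of the same animals looked different. Lars2 was at 93.3, 132, 974 and 289 CPM in BACHD cortex and at 1425.9, 96.8, 108 and 90.5 CPM in wild-type cortex. A single wild-type library held the highest level, a single BACHD library was next, and the other 3 wild-type libraries, at 90.5 to 108 CPM, lay close to or below the other 3 BACHD libraries. The fitted log2 change was −0.04 (SE 1.42). Rn45s was at 4444, 4862, 8479.7 and 4685 CPM in BACHD cortex and at 8724, 3812, 5160.3 and 2902 CPM in wild-type cortex, with a log2 change of 0.15 (SE 0.32). The high Rn45s values were those of the same 2 libraries, wild-type replicate 1 and BACHD replicate 3. Without both, an alternative chosen after seeing the data, the change was 0.90 (SE 0.25) for Lars2 and 0.26 (SE 0.19) for Rn45s. Leaving out 1 library at a time moved the Lars2 change from −1.31 (without wild-type replicate 4) to 1.66 (without wild-type replicate 1). The change was −1.28 without wild-type replicate 3, 1.26 without BACHD replicate 1, 1.20 without BACHD replicate 2, −0.84 without BACHD replicate 3, −0.23 without wild-type replicate 2 and 0.02 without BACHD replicate 4. For Rn45s it moved from −0.16 (without BACHD replicate 3) to 0.54 (without wild-type replicate 1), with −0.12 without wild-type replicate 4, 0.03 without wild-type replicate 2, 0.31 without BACHD replicate 1 and 0.26 without BACHD replicate 2. No direction of change could therefore be read for either gene in BACHD cortex.

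Over the 16 libraries of the BACHD cohort, the 6 with the most Lars2 were also the 6 with the most Rn45s. They were the 4 BACHD striatum libraries and those 2 cortex libraries. Both genes were listed for their values in BACHD striatum, so the place of these 4 libraries follows from that choice. Only the 2 cortex libraries were no part of it. The lowest of the 6 had 748 CPM of Lars2 and the highest of the other 10 had 289 CPM. For Rn45s the corresponding values were 7164 and 5160.3 CPM. Within the 6 the order differed: BACHD striatum replicate 2, ranked 1 for Lars2 at 1529.6 CPM, ranked 6 for Rn45s at 7164 CPM. Only the BACHD animal with 974 CPM of Lars2 in cortex had both its libraries among the 6, with 833 CPM in striatum. The BACHD animals with 748 and 872 CPM of Lars2 in striatum had 93.3 and 289 CPM in cortex. The wild-type animal with 1425.9 CPM of Lars2 in cortex had 177 CPM in striatum, and the BACHD animal with 1529.6 CPM in striatum had 132 CPM in cortex.

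**Figure D1:**
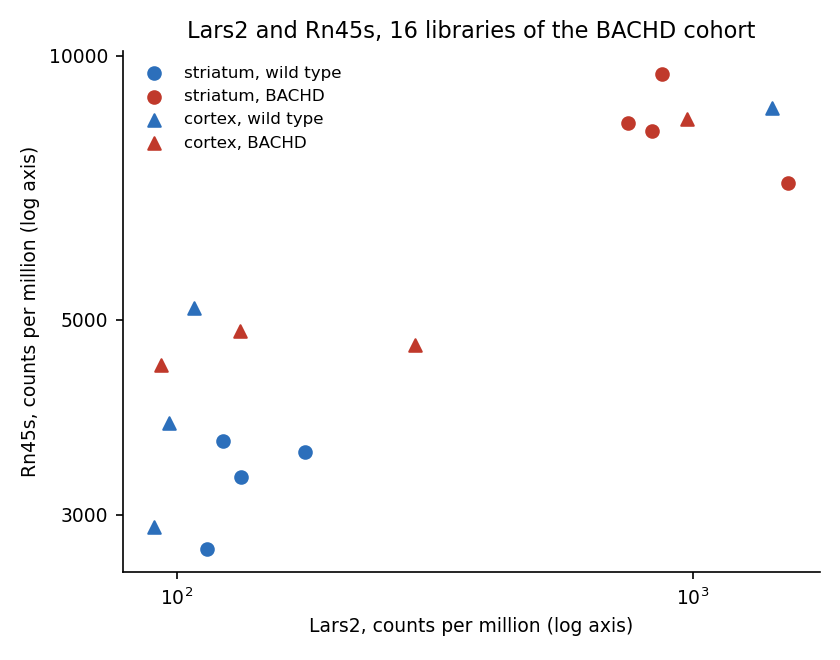
Each point is 1 library of the BACHD cohort, with Lars2 (x) and Rn45s (y) in CPM on log axes, circles for striatum, triangles for cortex, red for BACHD and blue for wild type. The 4 BACHD striatum libraries and 2 cortex libraries lie at the upper right, at 748 CPM or more of Lars2 and 7164 CPM or more of Rn45s, and the other 10 lie at the lower left. Both genes were chosen for their values in BACHD striatum, so the place of those 4 libraries follows from the choice.

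Other values of these libraries are given beside that pattern. Among the 8 cortex libraries, wild-type replicate 1 had the lowest Rmrp (892 CPM, others 1227 to 1613 CPM), the highest summed choroid plexus markers (225 CPM, others 9.72 to 82.2 CPM) and the highest summed striatal markers (357 CPM, others 214 to 278 CPM). BACHD replicate 3 had the next lowest Rmrp, at 1227 CPM, and choroid plexus markers of 15.7 CPM. In striatum, Rmrp was at 1643 to 2572 CPM in BACHD and at 2238 to 2565 CPM in wild-type mice, and summed choroid plexus markers at 49.2 to 152 and 87.1 to 218 CPM. All 6 choroid plexus markers were detected in each group. Wild-type striatum replicate 4 had summed cortical markers of 572 CPM, against 147 to 202 CPM in the other striatum libraries, and 123 CPM of Lars2. The totals of the 6 libraries with the most Lars2 ran from 37.4 M to 43.8 M counts, within the range of the other 10, from 35.3 M to 48.4 M counts. With wild-type replicate 4 included, the 8 cortical markers had a median log2 change of −1.08 in BACHD striatum against wild type. None of them was called (edgeR), where 0.0378% of all genes were. The part of these differences in the Lars2 and Rn45s levels was not tested.

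In the BAC-CAG cohort, Lars2 groups overlapped in every age and tissue. At 2 months the striatum had a lowest, median and highest library of 236, 291 and 356 CPM in BAC-CAG mice and of 245, 275 and 360.2 CPM in wild-type mice. In cortex these were 320.1, 339 and 367 CPM against 315, 358 and 421 CPM. The transgenic and wild-type libraries thus covered much the same range, and the log2 changes were 0.02 (SE 0.10) in striatum and −0.08 (SE 0.06) in cortex.

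At 6 months BAC-CAG striatum ran from 419.5 through a median of 607 to 998 CPM, and wild-type striatum from 419.8 through 513 to 871 CPM. Cortex ran from 511 through 713 to 958 CPM in BAC-CAG mice and from 294 through 578 to 1140.5 CPM in wild-type mice. The log2 change was 0.20 (SE 0.18) in striatum and 0.23 (SE 0.21) in cortex, each within little more than its SE. At 12 months the striatum ran from 259.7 through 378 to 449 CPM in BAC-CAG mice and from 265 through 357 to 459 CPM in wild-type mice. Cortex ran from 303 through 404 to 485 CPM and from 298 through 397 to 550.3 CPM. The changes were 0.08 (SE 0.11) and 0.00 (SE 0.10).

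**Figure D2:**
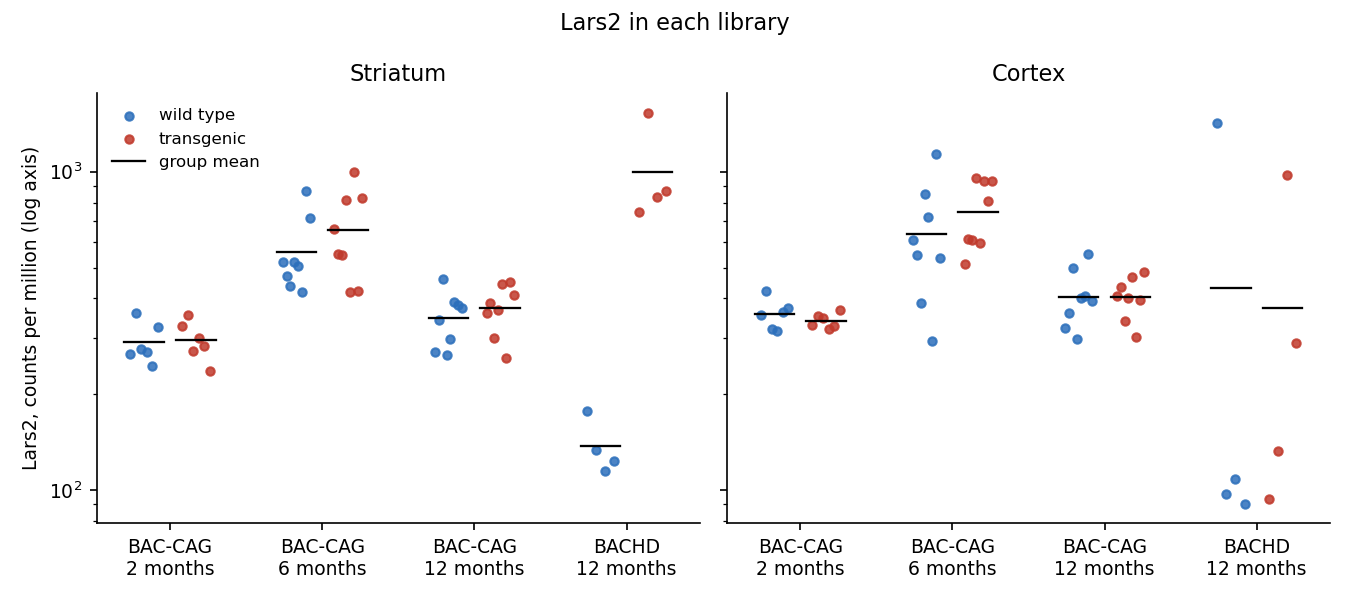
Lars2 in CPM on a log axis, 1 point per library, by line and age, for striatum (left) and cortex (right), with wild type in blue, transgenic in red and a bar at each group mean. The BACHD and wild-type points are apart in striatum only, where the means are 996 and 137 CPM. The widest range in the BAC-CAG cohort is at 6 months.

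Ordered by mean, the Lars2 groups ran from 137 ± 27.7 CPM in wild-type striatum of the BACHD cohort (SD, n = 4) to 996 ± 360 CPM in BACHD striatum (SD, n = 4). Within the BAC-CAG tables the lowest mean was 291 ± 42.9 CPM, in 2-month wild-type striatum (SD, n = 6), and the highest 747 ± 183 CPM, in 6-month BAC-CAG cortex (SD, n = 8). Wild-type striatum and wild-type cortex of the BACHD cohort, at 137 and 430.3 ± 664 CPM, overlapped in their libraries, as did BACHD cortex at 372 ± 410 CPM (SD, n = 4 each). Ages are in separate tables, so their differences were not tested. Most animals of the BAC-CAG cohort had more Lars2 in cortex than in striatum: 10 of 11 at 2 months, 11 of 16 at 6 months and 15 of 16 at 12 months. The fitted striatum-minus-cortex difference was −0.30 (SE 0.06), −0.22 (SE 0.15) and −0.22 (SE 0.08) on the log2 scale. In the BACHD cohort 6 of 8 animals had more in striatum, with a median log2 difference of 0.45 (range −3.01 to 3.53). The fitted difference, averaged over genotypes, was −0.20 (SE 0.58), so no direction could be read from it. The fitted difference was 2.80 (SE 1.28) larger in BACHD than in wild-type mice. That value includes the striatum contrast for which Lars2 was chosen.

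None of the 7 other synthetases passed the test with genotype in any of the 8 comparisons (edgeR's quasi-likelihood test, adjusted p under 0.05). The share of all genes called was 0.0378% in BACHD striatum and 0.00631% in BACHD cortex. For BAC-CAG it was 0.00558%, 0.0113% and 0.329% in striatum at 2, 6 and 12 months, and 0.00563%, 0.0114% and 0.00557% in cortex. With so few genes called anywhere, a count of 0 in 7 is near the background. Of the 56 values, 1 had an unadjusted p under 0.05 (Fars2 in 2-month cortex, log2 change 0.15, SE 0.06, adjusted p 0.72 by edgeR), against 5.92% over all genes, and DESeq2 also called none. The 56 log2 changes lay between −0.10 and 0.15, that is between 0.931 and 1.11-fold, with SEs of 0.03 to 0.11.

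In BACHD striatum, where Lars2 stood at 2.85, the other 7 had log2 changes from −0.09 (Nars2, SE 0.07) to 0.07 (Hars2, SE 0.08). Nars2 was at 29.2, 33.2, 32.5 and 31.6 CPM in BACHD striatum and at 36.9, 34.0, 33.3 and 30.0 CPM in wild-type striatum, with overlap. Aars2 ran from 21.7 to 24.0 CPM in BACHD striatum and from 19.4 to 28.1 CPM in wild-type striatum, a log2 change of −0.01 (SE 0.10). Iars2 had means of 62.4 and 63.9 CPM, Fars2 of 30.6 and 31.4 CPM, Hars2 of 25.9 and 24.5 CPM, Mars2 of 16.7 and 16.7 CPM and Ears2 of 7.90 and 7.93 CPM in BACHD and wild-type striatum. Set against the wild-type median of the same tissue, the other 7 lay between −0.20 and 0.40 (log2) in the 8 striatum libraries of this cohort, while Lars2 reached 3.58. In the 8 cortex libraries they lay between −0.32 and 0.11, while Lars2 reached 3.80.

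**Figure D3:**
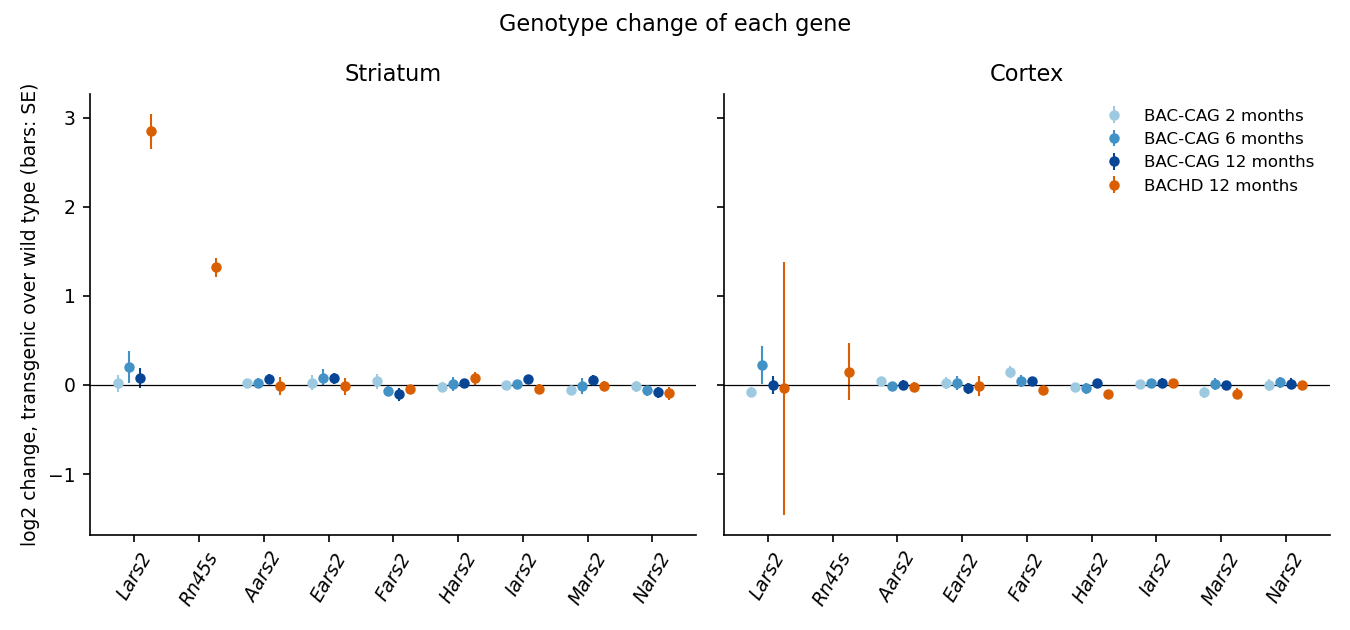
Log2 change of transgenic over wild type (y) for Lars2, Rn45s and the 7 other synthetases (x), with SE bars, in striatum (left) and cortex (right), coloured by line and age. Lars2 at 2.85 and Rn45s at 1.32 in BACHD striatum stand above the rest, the Lars2 bar in BACHD cortex (SE 1.42) crosses 0, and the 7 others stay between −0.10 and 0.15.

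The rest of the pathway was read from lists of related genes. None of 8 further mitochondrial synthetases (Cars2, Pars2, Rars2, Sars2, Tars2, Vars2, Wars2 and Yars2) was called with genotype in any of the 8 comparisons, with log2 changes from −0.13 to 0.13 and 1 of 64 values at an unadjusted p under 0.05 (edgeR). The 6 genes that serve mitochondria by another route gave no call either. They are Gars and Kars, whose enzymes work in both compartments, Gatb, Gatc and Qrsl1, the subunits that make glutaminyl-tRNA, and Mtfmt, which formylates the initiator, and 1 of their 48 values had an unadjusted p under 0.05. No call was made among 19 cytosolic synthetases (3 of 152 values unadjusted), 11 mitochondrial translation factors (3 of 88) or 11 genes of mitochondrial tRNA maturation (4 of 88). The integrated stress response, which uncharged transfer RNA can set off, was read from 15 genes, of which 13 passed the filter on low counts in each comparison. None was called, and 9.62% of their values were under 0.05 unadjusted (5.92% over all genes). DESeq2 called none of these genes with genotype. The median log2 change over all values of a list, the 8 comparisons pooled, lay between −0.01 and 0.01 for each of these lists, and the median over all genes lay between −0.01 and 0.00 in each comparison.

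Genes on either side of Lars2 on chromosome 9 were examined for the same comparison. The nearest 4 before it (Exosc7, Clec3b, Cdcp1 and Tmem158) and the nearest 4 after it (Limd1, Sacm1l, Slc6a20b and Slc6a20a) were all tested in BACHD striatum, with adjusted p-values from 0.69 to 0.996 by edgeR. Their log2 changes ran from −1.04 (Clec3b, adjusted p 0.69 by edgeR) to 0.05 (Slc6a20b). Exosc7, a subunit of the RNA exosome, had a change of 0.01. The noncoding entry Gm46137 overlaps Lars2 in the reference annotation, and no value is given for it here.

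Tissue separated most of the synthetases. Nars2, Ears2 and Fars2 were higher in striatum and Aars2, Iars2 and Mars2 higher in cortex in all 4 tables (edgeR's quasi-likelihood test). For Nars2 the striatum-minus-cortex log2 differences at 2, 6 and 12 months in the BAC-CAG cohort and in the BACHD cohort were 0.71 (SE 0.05), 0.65 (SE 0.04), 0.54 (SE 0.04) and 0.74 (SE 0.05). For Aars2 they were −0.52 (SE 0.03), −0.61 (SE 0.04), −0.53 (SE 0.04) and −0.53 (SE 0.06). Every animal with both tissues had more Nars2 in striatum and more Aars2 in cortex, 51 of 51 for each gene.

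Ears2 differed by 0.39, 0.34, 0.35 and 0.56, and Fars2 by 0.40, 0.38, 0.41 and 0.38 in the same order. Iars2 differed by −0.29, −0.24, −0.25 and −0.20, and Mars2 by −0.46, −0.41, −0.33 and −0.18. The largest adjusted p among these 6 genes was 0.000837, for Mars2 in the BACHD cohort (edgeR). Hars2 was lower in striatum at 6 months (−0.20, SE 0.05, adjusted p 0.000615 by edgeR) and at 12 months (−0.14, SE 0.04, adjusted p 0.000618 by edgeR) of the BAC-CAG cohort. It gave −0.08 (adjusted p 0.084) at 2 months and 0.07 (adjusted p 0.15) in the BACHD cohort by edgeR, neither past the threshold.

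Tissue differences were common among all genes. Of the genes tested, 36.3%, 37.8% and 38.2% were higher in striatum at 2, 6 and 12 months in the BAC-CAG cohort and 37.7% in the BACHD cohort, and 36.1%, 35.1%, 34.8% and 37.5% were lower. The 7 synthetases had 3 higher in each table and 3, 4, 4 and 3 lower, which is not far from that background. The related lists were also split. Among these 8 further mitochondrial synthetases, 3, 2, 3 and 3 were higher and 2, 2, 3 and 3 lower. Vars2 was lower in striatum in each table, by −0.33, −0.45, −0.41 and −0.33, and Rars2 higher, by 0.21, 0.26, 0.21 and 0.29. Kars, whose enzyme serves cytosol and mitochondria, was higher by 0.63, 0.62, 0.54 and 0.62.

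**Figure D4:**
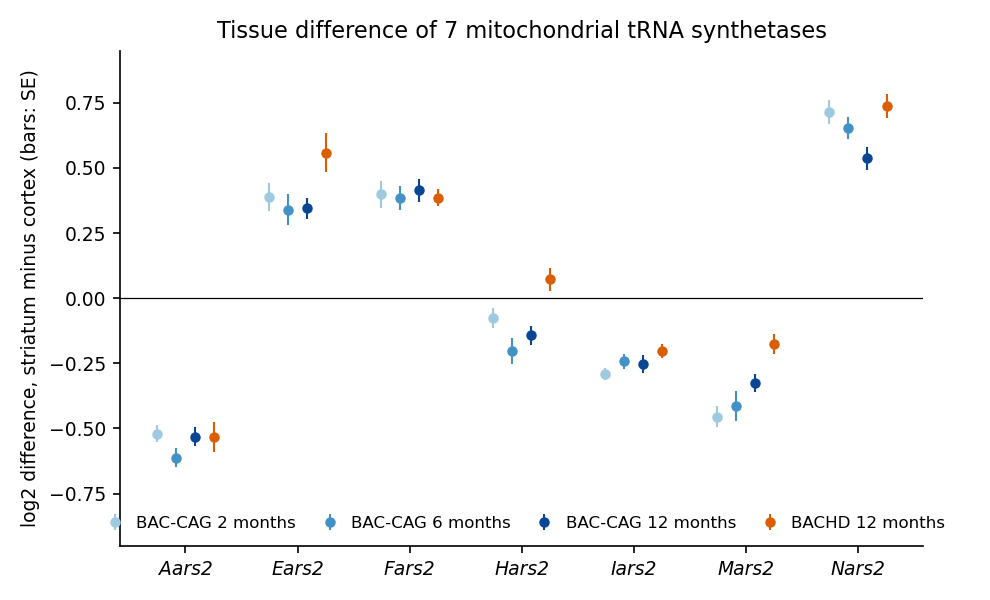
Striatum-minus-cortex log2 difference (y), averaged over genotypes, of the 7 synthetases (x) with SE bars, coloured by line and age. Ears2, Fars2 and Nars2 lie above 0 and Aars2, Iars2 and Mars2 below 0 in all 4 tables, and Hars2 lies between −0.20 and 0.07.

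The tissue difference of the 7 genes did not change detectably with genotype. No interaction was called in any table (edgeR), where 0%, 0%, 0.00522% and 0.00611% of all genes were called at 2, 6 and 12 months of the BAC-CAG cohort and in the BACHD cohort. None of the 28 values had an unadjusted p under 0.05, DESeq2 called none, and the interactions lay between −0.14 and 0.17 (log2). By sex, none of the 7 was called (edgeR), against 0.753%, 0.798%, 2.78% and 0.214% of all genes in the same order. Of the 28 values 6 had an unadjusted p under 0.05, where 13.83% of all genes did, and DESeq2 called none. The female-minus-male differences lay between −0.07 and 0.13. For Lars2 they were 0.14 (SE 0.06), 0.06 (SE 0.15), −0.21 (SE 0.08) and 0.35 (SE 0.68). Gm42418 was lower in females in the 12-month BAC-CAG cohort (log2 difference −0.41, SE 0.07, adjusted p 0.00108 by edgeR). The striatum and cortex libraries of an animal entered the sex fits as separate samples, with no animal block. The SEs and p-values by sex may therefore be too small.

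Per kilobase of annotated exon, Lars2 had the highest mean of the 8 synthetases in each of the 16 groups. The same exon lengths were used for both cohorts, though their gene annotations differ. In cortex of the BACHD cohort the SD exceeded the Lars2 mean, at 38.8 ± 59.9 (wild type) and 33.6 ± 37.0 CPM per kb (BACHD, SD, n = 4 each). There 1 wild-type library held 1425.9 CPM and the others 90.5 to 108 CPM. In 12-month wild-type cortex of the BAC-CAG cohort Lars2 was at 36.4 ± 7.66 CPM per kb (SD, n = 8). Aars2 followed at 7.59 ± 0.51, Hars2 at 7.28 ± 0.41 and Iars2 at 6.11 ± 0.37 CPM per kb. Lower levels were found for Mars2 (2.74 ± 0.20), Fars2 (1.60 ± 0.10), Nars2 (1.52 ± 0.15) and Ears2 (1.46 ± 0.10). Aars2 and Hars2 differed by less than their SD, as did Fars2 and Nars2, and Nars2 and Ears2. The exons of Lars2 span 11.089 kb once those of all its transcripts are merged, and its main coding transcript has 3894 bases, so a level per kb of Lars2 depends on the transcript taken. On GRCm38 Lars2 lies at chr9:123366927-123462666 on the plus strand. Hars2 and Hars, the cytosolic histidine enzyme gene on the opposite strand, lie head to head and overlap at their 5′ ends, and since strand-specific counting is not stated, reads in that overlap are uncertain.

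The spread of Lars2 among libraries of the same genotype, tissue and sex differed widely between tables. In BACHD-cohort cortex the SD of its log2 CPM, after removal of genotype and sex means, was 1.89, which ranked 1 among 13900 genes averaging 1 CPM or more. Rn45s, at 0.62, ranked 16 there. In striatum of that cohort the SD of Lars2 was 0.35 (rank 447 of 14008). In the BAC-CAG cohort it was 0.43 in striatum and 0.52 in cortex at 6 months, 0.26 and 0.24 at 12 months, and 0.20 and 0.11 at 2 months. Its rank was 102 of 15249 in 6-month cortex but 6537 of 15103 in 2-month cortex. The other 7 had SDs between 0.03 (Fars2, BACHD-cohort striatum) and 0.21 (Mars2, 6-month striatum). In 2-month cortex the SD of Lars2, 0.11, was close to that of Mars2, also 0.11.

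The genes that rose and fell with Lars2 among libraries were found by the correlation of log2 CPM after the same means were removed, with no p. It was computed over 12, 16 and 16 libraries of each tissue in the BAC-CAG cohort and 8 in the BACHD cohort, and points share depth and RNA quality. Gm15564, an antisense noncoding entry on chromosome 16, had the highest r in striatum at 6 months (r = 0.99, Spearman's rho 0.98) and at 12 months (r = 0.92, rho 0.91). It ranked 2 in 6-month cortex (r = 0.97, rho 0.98) and ranked 5 in 2-month cortex (r = 0.87, rho 0.75). Gm24187 had the highest r in 2-month striatum (r = 0.94, rho 0.92) and in 12-month cortex (r = 0.95, rho 0.99). Gm25732 had the highest r in 6-month cortex (r = 0.98, rho 0.95), and Gm23935 ranked 2 in 12-month striatum (r = 0.92, rho 0.91). Gm25732 averaged only 2.45 CPM there, and at 2 and 12 months it was below the 1 CPM needed for a correlation. Gm24187 averaged 7.47 CPM in 2-month striatum and 8.84 CPM in 12-month cortex, and Gm23935 averaged 202 CPM in 12-month striatum. Since Gm24187 and Gm23935 differ by 1 base, the low level of Gm24187 is uncertain. Mir6236 was not among the first 5 in any set, with r between 0.65 and 0.87 in the BAC-CAG cohort. Not every set gave such values: r was 0.44 for Gm24187 in 2-month cortex, 0.58 for Gm23935 in 6-month striatum (rank 2532 of 15331) and 0.78 for both Gm15564 and Gm23935 in 12-month cortex. Protein-coding genes filled other places among the first 5, such as Pex13 (r = 0.89) in 2-month striatum, Gmcl1 (r = 0.97) in 6-month striatum and Nubp2 (r = 0.94) in 12-month cortex. In the BACHD cohort, whose table holds no row for these noncoding entries, Nit1 had the highest r in striatum (0.99, rho 0.98) and Ap3d1 in cortex (0.99, rho 0.95), each over 8 libraries.

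Gm15564 shares sequence with Lars2. A run of 52 bases, at positions 3278 to 3329 of the 3894-base Lars2 transcript, is identical in a transcript of Gm15564. It lies in exon 21 of 21, in the 3′ untranslated region, at chr9:123462048-123462099 of GRCm38. Reads that fall inside it cannot be assigned to either gene by sequence, so the level of Gm15564 (group means of 6.38 to 16.3 CPM) is uncertain. Only 5 annotated genes share any run of 20 bases with this transcript, and 1, Gm15564, shares a run of 50. Neither the 7 other synthetases nor the cytosolic Lars shares a run of 50 bases with any Lars2 transcript.

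The entries on chromosome 17 were followed in the same way. Gm42418, at group means of 2127 to 5863 CPM, had r between 0.42 and 0.69 in the 6 sets of BAC-CAG libraries, and Gm26917 between 0.60 and 0.79. Their ranks varied widely. Gm42418 ranked 156 of 15266 in 2-month striatum but 4327 of 15331 in 6-month striatum. Gm26917 ranked 30 of 15102 in 2-month cortex but 2276 of 15331 in 6-month striatum. Without the 2 libraries farthest from the Lars2 median, r with Gm42418 was between 0.37 and 0.57. In the BACHD cohort, r of Lars2 with Rn45s was 0.90 in cortex (rho 0.76, rank 177 of 13899), and 0.26 without the 2 farthest libraries, so it rests on those. In striatum r was −0.19 (rho 0.17, rank 9164 of 14007), and 0.47 without the 2 farthest. The cortex r was −0.91 with Rmrp (rho −0.50) and −0.95 with Rpph1 (rho −0.69), and without the 2 farthest libraries 0.57 and −0.62. Within genotype and sex, then, no direction of the relation between Lars2 and Rn45s could be read over the 8 striatum libraries.

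The 7 other synthetases had r with Lars2 on both sides of 0 in every set but 6-month cortex. There all 7 were positive, from 0.13 to 0.66, as were 9810 of 15248 genes. Their median r was 0.38 and 0.12 in striatum and cortex at 2 months, 0.62 and 0.47 at 6 months, and 0.32 and 0.37 at 12 months. In the BACHD cohort it was 0.31 in striatum and −0.41 in cortex. The cortex value rests on the 2 libraries farthest from the Lars2 median, without which r of the 7 genes ran from 0.09 (Ears2) to 0.65 (Aars2). Over all genes the median r lay between 0.01 and 0.17. Mars2 had the highest of these r in 6-month striatum (0.81), and Nars2 the lowest in BACHD-cohort cortex (−0.76, and 0.43 without the 2 farthest libraries).

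**Figure D5:**
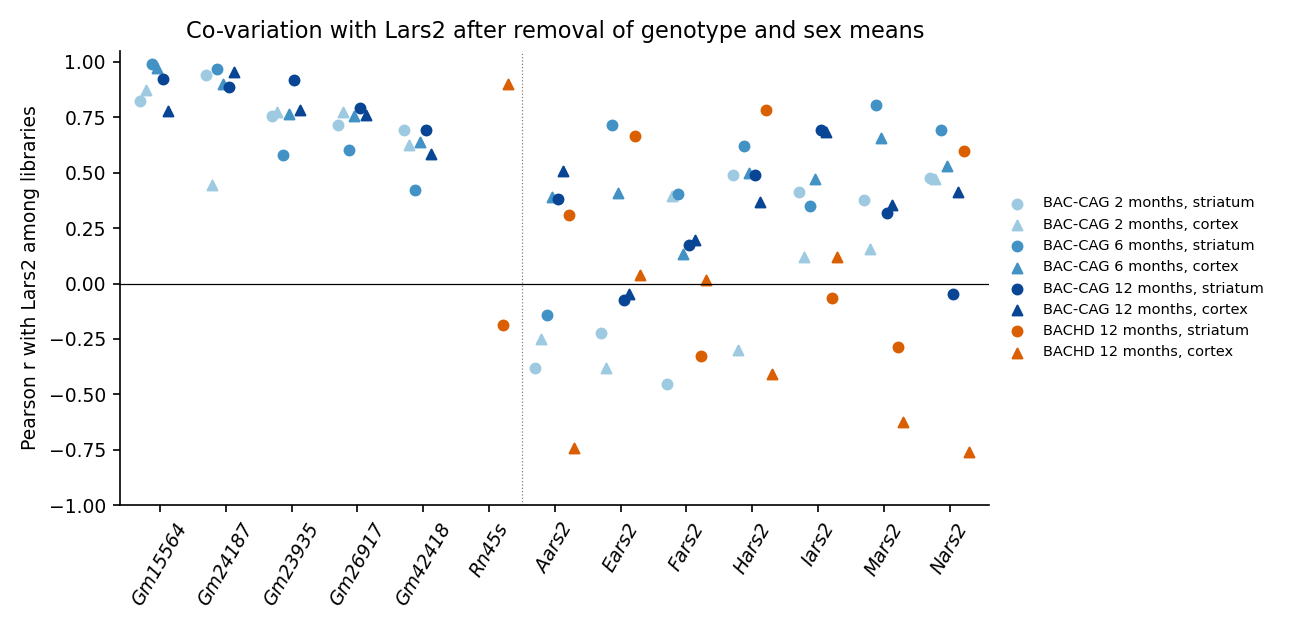
Pearson's r with Lars2 (y) among libraries after removal of genotype and sex means, for noncoding entries left of the dotted line and the 7 synthetases right of it, with circles for striatum, triangles for cortex and colours for line and age. Gm15564 lies between 0.78 and 0.99, Rn45s at 0.90 and −0.19, and the synthetases between −0.76 and 0.81.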

How the data were processed

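The deposited tables hold whole-number counts of reads per gene. The authors made them with STAR and HTSeq on GRCm38 (mm10), per the submitters' processing notes; versions, strand setting and annotation are not given in the sources used here. The labels name a stranded library kit and the series text a kit that does not mark strand. Groups, sex, age and animal come from the labels. No column was left unassigned. Depth was 25.8 M to 48.4 M counts per library (M, mega).

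Genotype was tested within each table and tissue with edgeR 4.0.16 (R 4.3.3), quasi-likelihood, TMM, filterByExpr, sex as covariate, Benjamini-Hochberg threshold 0.05. A model of 4 groups plus sex per table gave tissue, interaction and sex. Each SE of a fitted difference was computed as the size of the log2 difference divided by the square root of its quasi-likelihood F. It is rough where the difference is near 0. CPM were computed on total counts. Correlations used log2(CPM + 0.5) and genes of at least 1 CPM on average. Alternatives were DESeq2 1.42.0, RLE factors, library sizes without ribosomal loci and Lars2, no filter, no sex term, threshold 0.1, each library left out, and an animal block. On simulated counts with 200 changed genes, 85.7% of the 2-fold and 74.7% of the 1.5-fold changes were recovered in the BACHD striatum design (15775 genes). Of the genes called there, 7.6% were unchanged ones, more than the threshold of 0.05 allows for.

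Libraries of 1 animal share the animal by their labels, and deviations of its striatum and cortex libraries correlated in every animal (median r 0.33 to 0.51 per table). Sex was not removed from these deviations, and no r between different animals was computed. The values are therefore no check of the labels. All 308 within-group pairs of libraries differed beyond counting noise (lowest chi-square per degree of freedom 2.95). The genes and lists were chosen with earlier results of these data known. The genes named are all members, the related lists, list members past the threshold (up to 4 per list and comparison), the 5 genes with the highest r per table and tissue, and neighbours of Lars2. Of the last 2 kinds some are not named in full. Single noncoding entries were followed in the correlations of each table and tissue where they averaged 1 CPM or more.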

Additional observations from a re-analysis of the deposited data

Results flagged for a closer look

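In 9 of 132 sets of a gene and a group, 1 library stood far from the others of its group by the gap to its nearest neighbour (Dixon's 95% criterion); chance alone flags about 1 set in 20, and the sets share libraries. For Lars2 these were wild-type cortex replicate 1 of the BACHD cohort, at 1425.9 CPM where the others had 90.5 to 108 CPM, and BACHD striatum replicate 2, at 1529.6 CPM where the others had 748 to 872 CPM. For Rn45s it was BACHD cortex replicate 3, at 8479.7 CPM where the others had 4444 to 4862 CPM.

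The other 6 were libraries of the remaining synthetases. Ears2 was at 8.40 CPM in replicate 2 of 12-month BAC-CAG cortex (others 6.87 to 7.52), at 4.22 CPM in BACHD cortex replicate 2 (others 5.27 to 5.45) and at 14.0 CPM in replicate 6 of 6-month BAC-CAG striatum (others 8.38 to 11.04). Hars2 was at 25.5 CPM in replicate 1 of 12-month BAC-CAG striatum (others 29.7 to 31.5). Iars2 was at 56.8 CPM in replicate 1 of 6-month wild-type cortex (others 47.5 to 51.1), and Nars2 at 14.0 CPM in replicate 6 of 2-month BAC-CAG striatum (others 15.27 to 16.04).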

How the results depend on the processing

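The count of 0 called synthetases with genotype held under all 153 alternatives, and those by interaction (8) and sex (4) also held. The number with a tissue difference stayed at 6 or 7 of 7 in all 120, and single differences kept their direction in all 840. Hars2 passed the threshold in 7 of them, each without 1 library, at −0.09 at 2 months and 0.10 to 0.12 in the BACHD cohort. With the replicate block (the animal), 6, 7, 7 and 6 of the 7 had a tissue difference and no interaction was called, so the paired fit changed no call. No paired analysis of genotype was possible because an animal has 1 genotype. Left-out libraries moved the Lars2 change between 2.62 and 3.03 in BACHD striatum and between −1.31 and 1.66 in BACHD cortex. In the BAC-CAG cohort the ranges were −0.03 to 0.07, 0.10 to 0.30 and 0.01 to 0.17 in striatum at 2, 6 and 12 months, and −0.11 to −0.03, 0.11 to 0.39 and −0.06 to 0.07 in cortex. For Rn45s they were 1.23 to 1.40 in striatum and −0.16 to 0.54 in cortex.

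Correlations with Lars2 moved by more than their approximate standard error in 20 of 60 alternatives, and the cause was not tested. Without the 2 libraries farthest from the Lars2 median, r with Gm42418 was 0.39 in 2-month striatum, 0.46 in 12-month striatum and 0.38 in 12-month cortex. With Gm15564 it was 0.94 and 0.80 in striatum and cortex at 2 months, 0.99 and 0.95 at 6 months, and 0.83 and 0.65 at 12 months. With Gm24187 it was 0.95 and 0.85 at 6 months and 0.79 and 0.92 at 12 months. With Rn45s it was 0.47 in striatum and 0.26 in cortex. Spearman's rho was 0.75 (2-month cortex) and 0.98 (6-month striatum) with Gm15564, 0.91 (6-month striatum) and 0.99 (12-month cortex) with Gm24187, and 0.76 (BACHD-cohort cortex) with Rn45s. With 4 animals a group, the SE of 1.42 on the Lars2 change in BACHD cortex is rough, since the change is near 0. It and the range of −1.31 to 1.66 with 1 library left out leave wide room for a change in either direction.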
